A study of Homo sapiens with 12 samples.

Results

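The promoters described here carried the strongest BG4 signal that recurred in every library of a G-quadruplex ChIP-seq experiment in the human cell line HEK293, an established line from embryonic kidney. BG4 is an antibody fragment that binds G-quadruplexes, and its signal was read as counts of reads in 400 bp windows centred on annotated transcription start sites (TSSs). Members were selected on the measured signal itself. A window was a member when a peak overlapped it in the peak lists of all 3 biological replicates (BioRep1, BioRep2 and BioRep3) and when it held at least 60 CPM (reads scaled to 1e6 reads in windows) in each of the 9 libraries. This held for 1433 of 58381 windows (2.46% of 58344 nuclear ones), and for 27.6% of the 5187 nuclear windows with a peak in all 3 lists. The cells were untreated apart from fixation with formaldehyde, the design has a single condition, and each biological replicate has 3 technical ChIP libraries and 1 input prepared without the BG4 step and not used here. Nothing in the sample titles tells whether biological replicates came from separate cultures. The peak lists and the counts come from the same reads, and 41.9% of the members overlap another window and share reads with it, so that the 1433 windows stand at 1211 separate loci.

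G-quadruplexes are stacks of planar guanine tetrads, which DNA with 4 nearby runs of guanine can fold into, on whichever strand carries the runs. In human cells they are known chiefly from promoters in open chromatin that are rich in CpG and free of nucleosomes. GC boxes, which factors of the SP and KLF families bind, contain such G runs. Members were named by a RefSeq gene 5′ end within 200 bp of the window's TSS on the same strand. A name was found for 1238 members, 189 of them with the gene's strand not given, and 195 keep only the Ensembl identifier of the file. The names stand for 1209 gene symbols. Of the named windows, 1082 belong to protein-coding genes, 131 to long non-coding RNAs and 25 to other classes.

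The 6 promoters below belong to the named members with the highest signal in their lowest library for which RefSeq (GRCh38.p14) gives a promoter of 300 bases, 250 before and 50 after the gene's 5′ end. They show how G and C runs were spread in promoters of strong windows. Each is printed 5′ to 3′ on the gene's own strand, and capitals mark every run of 3 or more G or 3 or more C. They lie at chr9:79571715-79572014 (+ strand), chr1:244652876-244653175 (+ strand), chr13:67230287-67230586 (- strand), chr16:29973372-29973671 (+ strand), chr1:235504403-235504702 (- strand) and chr1:228165463-228165762 (- strand). The TLE4 and DESI2 5′ ends lie 192 and 191 bp downstream of the window's own TSS, so these 2 sequences cover only the downstream part of the window.
TLE4: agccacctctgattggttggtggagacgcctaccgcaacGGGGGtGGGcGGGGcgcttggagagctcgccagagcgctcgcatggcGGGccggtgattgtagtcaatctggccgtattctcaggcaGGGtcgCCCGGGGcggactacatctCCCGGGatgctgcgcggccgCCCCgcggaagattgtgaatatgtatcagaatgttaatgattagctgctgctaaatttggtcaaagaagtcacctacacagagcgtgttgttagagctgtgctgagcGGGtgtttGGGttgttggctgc
DESI2: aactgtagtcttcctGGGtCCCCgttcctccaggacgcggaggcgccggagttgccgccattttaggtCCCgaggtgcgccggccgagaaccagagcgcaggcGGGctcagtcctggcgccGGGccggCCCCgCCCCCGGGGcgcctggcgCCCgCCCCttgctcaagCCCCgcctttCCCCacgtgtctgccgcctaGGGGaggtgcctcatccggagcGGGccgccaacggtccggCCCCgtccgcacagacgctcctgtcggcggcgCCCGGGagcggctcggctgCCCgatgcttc
PCDH9: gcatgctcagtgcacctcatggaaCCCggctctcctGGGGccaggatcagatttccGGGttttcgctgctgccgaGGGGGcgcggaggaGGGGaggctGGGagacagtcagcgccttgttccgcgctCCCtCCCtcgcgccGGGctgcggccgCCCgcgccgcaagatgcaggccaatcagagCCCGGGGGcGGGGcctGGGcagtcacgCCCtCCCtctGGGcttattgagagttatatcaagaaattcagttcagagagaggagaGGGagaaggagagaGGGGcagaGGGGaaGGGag
LOC124903762: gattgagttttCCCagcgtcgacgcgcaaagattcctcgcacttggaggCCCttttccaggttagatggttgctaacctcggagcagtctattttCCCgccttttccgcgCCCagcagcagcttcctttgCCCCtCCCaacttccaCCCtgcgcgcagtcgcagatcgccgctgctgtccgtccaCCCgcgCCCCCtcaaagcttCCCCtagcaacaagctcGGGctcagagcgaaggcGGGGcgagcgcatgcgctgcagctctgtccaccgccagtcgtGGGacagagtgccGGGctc
B3GALNT2: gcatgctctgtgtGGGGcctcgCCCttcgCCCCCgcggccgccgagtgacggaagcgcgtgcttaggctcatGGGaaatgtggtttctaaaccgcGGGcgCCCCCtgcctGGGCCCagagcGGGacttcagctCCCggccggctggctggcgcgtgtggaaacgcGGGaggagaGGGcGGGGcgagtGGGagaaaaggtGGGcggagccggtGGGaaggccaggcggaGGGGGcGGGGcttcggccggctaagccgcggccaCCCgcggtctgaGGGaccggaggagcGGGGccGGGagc
IBA57-DT: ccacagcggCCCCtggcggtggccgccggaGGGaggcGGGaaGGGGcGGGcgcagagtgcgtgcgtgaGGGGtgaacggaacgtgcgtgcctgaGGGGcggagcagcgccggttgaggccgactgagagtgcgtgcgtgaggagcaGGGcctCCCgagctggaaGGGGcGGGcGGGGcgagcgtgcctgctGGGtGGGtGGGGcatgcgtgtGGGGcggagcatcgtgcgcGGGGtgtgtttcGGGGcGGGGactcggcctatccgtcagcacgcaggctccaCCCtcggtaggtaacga

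The IBA57-DT and B3GALNT2 promoters hold 20 and 22 runs and carry the four-run motif GGGN1-7GGGN1-7GGGN1-7GGG on the coding strand, in which 4 runs of G are joined by loops of 1 to 7 bases. The TLE4, DESI2, PCDH9 and LOC124903762 promoters hold 12, 18, 21 and 14 runs, and no match to the motif was found in the printed bases on either strand. The bases of the windows outside these promoters were not searched. The LOC124903762 window has the Ensembl identifier ENSG00000149930.17. Its name here is only that of the nearest RefSeq 5′ end, 19 bp away.

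The next 4 promoters are those of the members with the most runs, and show the other end of the range. They lie at chr10:15168644-15168943 (- strand), chr22:50507653-50507952 (- strand), chr1:233327474-233327773 (+ strand) and chr6:4135526-4135825 (- strand).
NMT2: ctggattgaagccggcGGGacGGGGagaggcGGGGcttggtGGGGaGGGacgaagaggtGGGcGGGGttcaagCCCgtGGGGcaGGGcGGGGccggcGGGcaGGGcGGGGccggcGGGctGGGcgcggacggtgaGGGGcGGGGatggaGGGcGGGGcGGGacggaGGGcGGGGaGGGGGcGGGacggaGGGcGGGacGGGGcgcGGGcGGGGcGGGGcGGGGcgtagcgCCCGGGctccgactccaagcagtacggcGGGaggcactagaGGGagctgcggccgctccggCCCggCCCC
LMF2: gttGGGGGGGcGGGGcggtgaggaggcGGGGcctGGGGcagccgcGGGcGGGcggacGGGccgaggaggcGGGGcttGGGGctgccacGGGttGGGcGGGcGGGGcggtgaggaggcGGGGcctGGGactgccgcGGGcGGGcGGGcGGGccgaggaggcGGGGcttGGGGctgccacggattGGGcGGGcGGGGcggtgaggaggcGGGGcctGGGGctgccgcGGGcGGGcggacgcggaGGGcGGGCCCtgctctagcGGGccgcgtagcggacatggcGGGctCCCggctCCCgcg
MAP3K21: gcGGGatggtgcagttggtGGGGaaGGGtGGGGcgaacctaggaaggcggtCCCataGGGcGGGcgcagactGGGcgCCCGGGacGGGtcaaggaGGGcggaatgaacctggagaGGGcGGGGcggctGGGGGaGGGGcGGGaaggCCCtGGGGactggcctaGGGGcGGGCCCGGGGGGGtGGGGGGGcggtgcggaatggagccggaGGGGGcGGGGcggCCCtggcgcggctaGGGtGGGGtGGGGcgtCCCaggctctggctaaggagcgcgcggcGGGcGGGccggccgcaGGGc
ECI2: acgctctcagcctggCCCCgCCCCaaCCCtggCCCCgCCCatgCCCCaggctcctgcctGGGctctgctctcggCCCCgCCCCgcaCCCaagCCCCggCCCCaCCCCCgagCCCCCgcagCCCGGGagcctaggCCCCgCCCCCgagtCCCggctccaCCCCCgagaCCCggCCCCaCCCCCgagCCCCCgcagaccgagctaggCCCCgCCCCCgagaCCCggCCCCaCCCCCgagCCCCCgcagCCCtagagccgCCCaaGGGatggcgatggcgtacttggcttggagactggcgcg

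The promoters of NMT2, which encodes an enzyme that adds myristate to proteins, the lipase maturation factor gene LMF2 and the kinase gene MAP3K21 hold 38, 35 and 34 runs, mostly of G on the coding strand. The promoter of ECI2, which encodes an enzyme of fatty acid oxidation, holds 33, mostly of C, so that its G runs lie on the template strand. None of these 4 was among the 19 strongest windows. NMT2 averaged 126 ± 10.6 CPM, LMF2 111 ± 2.68, MAP3K21 83.2 ± 13 and ECI2 77.7 ± 5.72 CPM (SD, n = 3 biological replicates, as below unless stated).

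The strongest window by its lowest library, ENSG00000186056.9 (chr1:30718305-30718704, + strand), had no RefSeq 5′ end within reach. It held 239 to 258 CPM in the libraries of BioRep1, 219 to 260.2 CPM in those of BioRep2 and 243 to 256 CPM in those of BioRep3, a mean of 244 ± 8.90 CPM. The ranges of the 3 biological replicates overlapped there. TLE4 (ENSG00000106829.18, chr9:79571574-79571973), which encodes a corepressor of the Groucho family, followed.

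TLE4 held 209.8, 212 and 196 CPM in BioRep1, 234, 226 and 255 CPM in BioRep2 and 235, 234 and 279.7 CPM in BioRep3. BioRep1 was lowest in all 3 of its libraries, and BioRep2 and BioRep3 overlapped. DESI2 (ENSG00000121644.18, chr1:244652736-244653135), which encodes a protein of the deSUMOylating isopeptidase family, showed the same order, with 182, 202 and 185 CPM in BioRep1, 257, 216 and 232 CPM in BioRep2 and 229, 241 and 248 CPM in BioRep3. PCDH9, which encodes a protocadherin, was the one protocadherin gene of 58 in the list with a member window, at 195 ± 14.2 CPM.

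EMD (ENSG00000102119.10, chrX:154378998-154379397), the gene of the inner nuclear membrane protein emerin, held 157, 180.1 and 159 CPM in BioRep1, 187, 182 and 166 CPM in BioRep2 and 195, 194 and 180.3 CPM in BioRep3. BioRep2 overlapped both others, and BioRep3 lay just above BioRep1. Genes of nucleotide supply were also near the top. GUK1 (guanylate kinase) averaged 179 ± 7.58 CPM, ADSS2 (adenylosuccinate synthase, a step towards AMP) 176 ± 14.2 CPM, and RRM2B (the p53-inducible small subunit of ribonucleotide reductase) 165 ± 16.6 CPM. MAZ, whose zinc fingers bind G-rich DNA, averaged 160.3 ± 12.1 CPM, and PKNOX1, a homeobox factor, 169 ± 22.5 CPM.

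**Figure D1:**
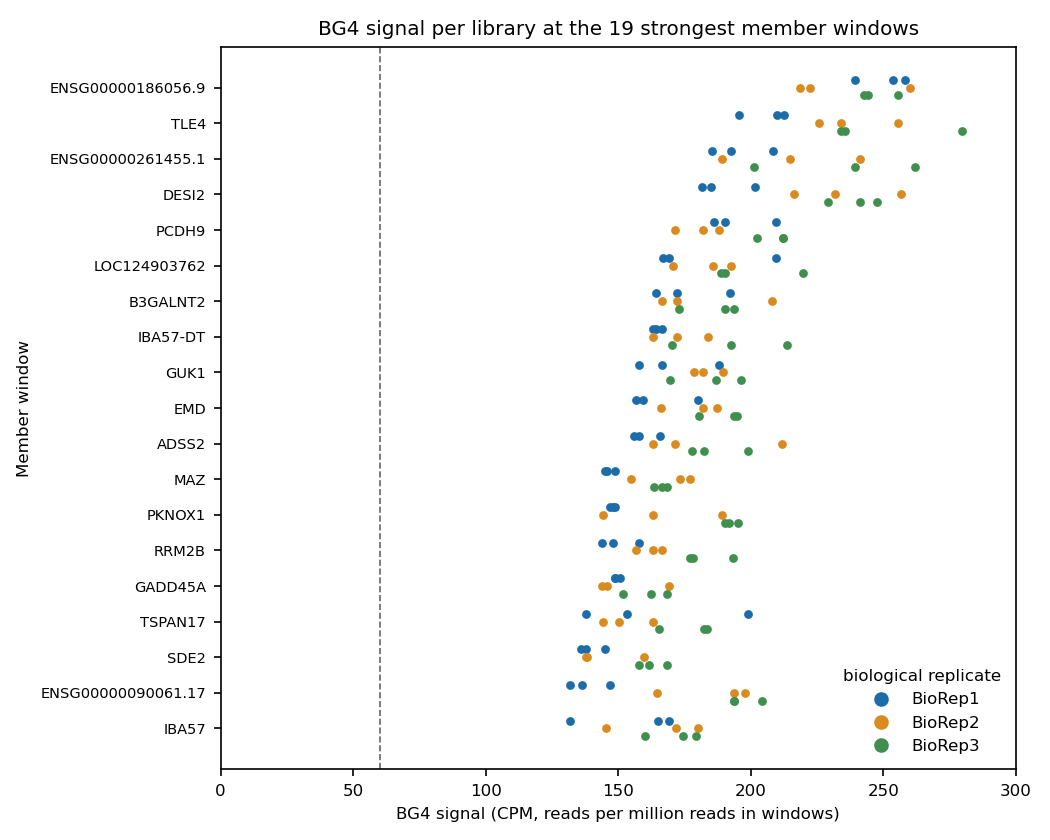
BG4 signal in CPM (x axis) in each of the 9 libraries at the 19 member windows with the highest lowest-of-9 signal (y axis), points coloured by biological replicate and the dashed line at the 60 CPM threshold. All 19 lie well beyond the threshold, at 219 CPM or more in ENSG00000186056.9 and 132 CPM or more in IBA57, and BioRep1 points often lie to the left.

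The strong windows were few. Mean signal ran between 66.4 and 244 CPM, with quartiles of 81.0, 89.8 and 102 CPM. In 640 members the lowest library held 60 to 70 CPM, in 125 it held 100 CPM or more, and 403 members averaged 100 CPM or more. The highest library held 1.47 times the lowest in the median member, between 1.13 times in SPECC1L and 2.17 times in EDRF1-DT, a long non-coding RNA divergent to EDRF1. The SD between technical libraries had a median of 9.89 CPM, beside a counting error of 12.2 CPM for 1 library at the median member's signal. The SD between biological replicates, each a mean of 3 libraries, had a median of 8.18 CPM, beside a counting error of 7.04 CPM for such a mean. These spreads are of the values that chose the members. Requiring 60 CPM in every library removes windows with a low value in any of them, which the counting error does not allow for. The comparison therefore cannot show that members are steady.

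Just inside the threshold, RRAGC-DT, EAF2, ZNF271P, RWDD3 and ENSG00000130489.14 each had a lowest library of 60.3 CPM. Just outside it, ETV3, TRIM26, FICD, HS3ST3B1 and PUS1 each had a lowest library of 59.8 CPM. A further 1064 windows with a peak in all 3 lists had a lowest library of 50 to 60 CPM, and 827 lay between 55 and 65 CPM. The line therefore cuts through a continuous range. In the shallowest library, with 372030 reads in windows, 60 CPM is 22.3 reads, and in the deepest, with 846114 reads, 50.8 reads. The lowest of the 9 values came from BioRep1 in 999 members, spread over its 3 libraries (325, 355 and 319), from BioRep2 in 279 and from BioRep3 in 155.

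Members took 12.5 ± 0.119% of the reads in windows in BioRep1, 13.7 ± 0.233% in BioRep2 and 14.4 ± 0.214% in BioRep3 (SD, n = 3 technical libraries). Their median signal was 83.2, 91.3 and 96.2 CPM. In edgeR's quasi-likelihood test over the 3 biological replicates, 0 of 1433 members were called at an adjusted p of 0.05, beside 0% of the 17499 windows tested. At an unadjusted p of 0.05, 183 members (12.8%) passed, beside 7.88% of all windows. DESeq2's likelihood ratio test called 0 windows and had 39 members (2.72%) at that level, beside 1.91% of all windows. These p-values measure only the spread between technical libraries, and requiring a minimum signal in every library limits how far a member can differ, so the count describes the set and is no evidence of steadiness.

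The lowest adjusted p among members was 0.147, with edgeR, at IFT122, which encodes part of the transport machinery of cilia. IFT122 held 101, 112 and 116 CPM in BioRep2 and 106, 128 and 115 CPM in BioRep3, against 75.1, 69.9 and 65.2 CPM in BioRep1. BioRep1 lay below BioRep2 and BioRep3, which overlapped each other. The log2 fold change was 0.62 for BioRep2 over BioRep1 and 0.67 for BioRep3 over BioRep1. CIAO1, a cytosolic iron-sulfur assembly factor, held 136, 131 and 118 CPM in BioRep3 and 98.9, 109.9 and 100.3 CPM in BioRep2, against 78.3, 80.6 and 77.9 CPM in BioRep1, with no overlap between the 3 and an adjusted p of 0.166 in edgeR's test. Without the filter on low counts the same test called 25 of 56196 windows (0.0445%), 8 of them members. Over all members the median log2 fold change was 0.10 for BioRep2 over BioRep1, 0.14 for BioRep3 over BioRep1 and 0.05 for BioRep3 over BioRep2, with the median of all windows near 0. The calls were 0 in each of these contrasts, where 147 (10.3%), 231 (16.1%) and 84 (5.86%) members had an unadjusted p under 0.05, beside 7.59%, 8.62% and 5.59% of all windows.

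Each member was next set against its surroundings. Its local background was the mean CPM of windows without a peak in any list whose TSS lay within 2.5 Mb, 17 to 346 windows per member (median 106). The median local background was 11.1 ± 0.496 CPM for members, against 10.4 ± 0.445 CPM for the 3754 other windows with a peak in all 3 lists, 10.1 ± 0.454 CPM for the 2083 windows with a peak in BioRep2 and BioRep3 only, and 9.43 ± 0.426 CPM for the 49150 windows with no peak. The order was the same in each biological replicate. These are reads of other windows than the members' own.

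Members stood a median of 8.21 ± 0.964 times above their local background, against 5.57 ± 0.463 times for the other windows with a peak in all 3 lists, 4.32 ± 0.478 times for windows with a peak in BioRep2 and BioRep3 only and 0.853 ± 0.0136 times for windows with no peak. By biological replicate, members stood at 7.17 times in BioRep1, 8.37 times in BioRep2 and 9.08 times in BioRep3. It was 10 or more in 305 members, 5 to 10 in 1093 and under 5 in 35. The highest single ratio was 25.4 times in members, against 29.6 in the other windows with a peak in all 3 lists. It was 36.4 in windows with a peak in BioRep2 and BioRep3 only and 34.5 in protein-coding windows with no peak. The rule fixes that members are high, so these ratios describe them.

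Among members, EMD led with 25.4 ± 2.35 times a local background of 7.02 ± 0.344 CPM. TMEM87B, whose protein lies in the Golgi membrane, stood at 22.9 ± 2.46 times and ARL6IP1, which encodes a shaping protein of the endoplasmic reticulum, at 21.9 ± 2.86 times. They reached this with 119 and 108 CPM, because their backgrounds were only 5.23 and 4.93 CPM. TLE4 (22.4 ± 3.37) and DESI2 (22.1 ± 3.45), by contrast, were high in both measures. AFG3L2, a protease of the mitochondrial inner membrane, stood at 21.4 ± 2.44 times.

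At the other end, ZSCAN30 stood at 4.01 ± 0.317 times and NTPCR, a nucleoside triphosphatase gene, at 4.08 ± 0.459 times. NTPCR held 72.0, 72.6 and 67.1 CPM in BioRep1, 62.4, 72.1 and 81.5 CPM in BioRep2 and 79.5, 74.7 and 84.2 CPM in BioRep3, over a background of 18.2 ± 0.837 CPM. The top window by signal, ENSG00000186056.9, lay over a background of 18.1 CPM and stood at 13.5 ± 0.740 times, the 64th highest ratio among members. PCDH9 and B3GALNT2, which encodes a sugar-transferring enzyme of dystroglycan, stood at 10.8 ± 1.28 and 10.5 ± 0.793 times.

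**Figure D2:**
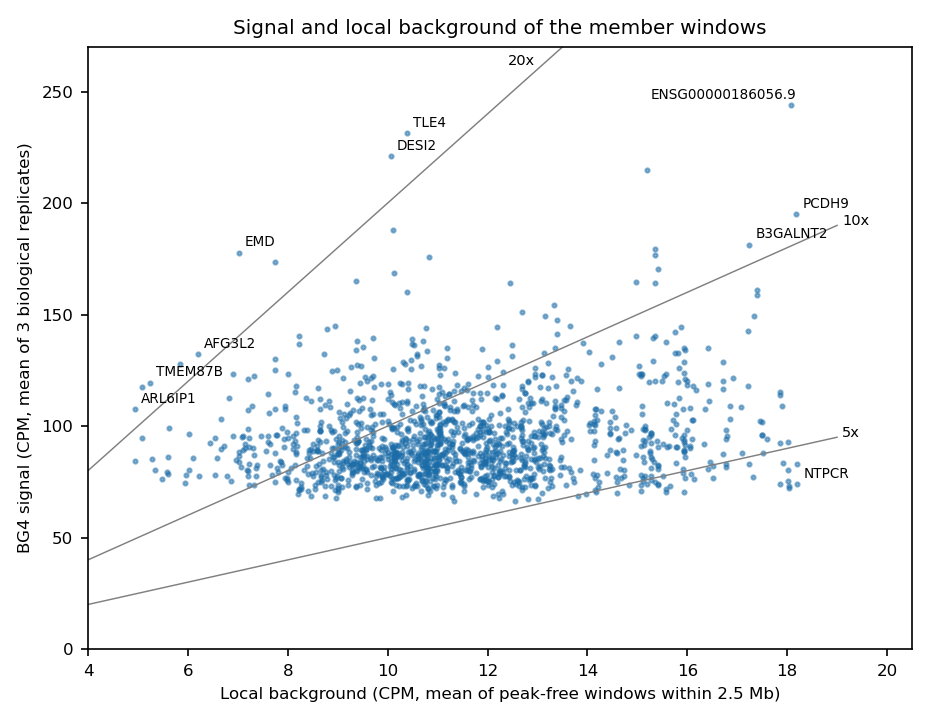
BG4 signal (y axis, mean of 3 biological replicates, CPM) against local background (x axis, CPM) for the 1433 members, 1 point each, with grey lines at 5, 10 and 20 times the background. EMD, TMEM87B, ARL6IP1 and AFG3L2 reach 20 times over a low background, whereas NTPCR lies under 5 times over the highest.

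The share of members was highest where the local background was highest. Windows with a peak in all 3 lists were split into 5 classes of near equal size by local background. Members made up 16.8% (95% Wilson interval 14.6 to 19.2) of the lowest class, 22.5% of the next, then 29.2% and 27.2%, and 42.5% (39.5 to 45.5) of the highest. Wilson intervals cover counting error only, here and below. Dividing the signal by the local background and multiplying by the genome-wide median left 1106 windows past the same threshold. Of the members, 807 were among them, which is 56.3% of the members and 73.0% of the new set.

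By chromosome, the share of windows with a peak in all 3 lists that were members was highest on chromosomes 21 (43.3%, 31.6 to 55.9), 22 (43.0%, 35.3 to 51.0) and 1 (40.5%, 36.6 to 44.5) and lowest on chromosomes 20 (16.1%) and 5 (14.7%, 10.6 to 20.0). Chromosome 1 held 242 members. Peak-free windows averaged 11.4 ± 0.462 CPM on chromosome 1 and 11.5 ± 0.644 CPM on chromosome 22 but 8.02 ± 1.10 CPM on chromosome 21, and 8.94 ± 0.371 CPM on chromosome 5. Their part in the result was not tested.

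Beyond 200 Mb on chromosome 1, 71 of 123 windows with a peak in all 3 lists were members (57.7%, 48.9 to 66.1), against 26.9% (25.7 to 28.1) of such windows elsewhere. This stretch held 4.95% of all members and 2.37% of all windows with a peak in all 3 lists. Among them were DESI2, ADSS2, B3GALNT2, GUK1, IBA57, SDE2, ARF1, PARP1 and TP53BP2. Peak-free windows there averaged 12.3 ± 0.450 CPM, against 9.25 ± 0.451 CPM elsewhere. On the rest of chromosome 1 the share of members was 36.0% (31.8 to 40.4), with peak-free windows at 11.1 ± 0.471 CPM. After division by the local background, 26 windows beyond 200 Mb passed the threshold, 2.35% of the set then left. Such division lowers windows over a high background by construction, and the cause of the surplus was not tested.

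Segments of 10 Mb were compared where they held at least 20 windows with a peak in all 3 lists, which was so for 93. The share of members was highest at 230 to 240 Mb of chromosome 1 (20 of 26, 76.9%), followed by 150 to 160 Mb of chromosome 7 (19 of 26). It was lowest at 40 to 50 Mb of chromosome 12, with 0 of 24, for which the Wilson interval reaches 13.8%. Spearman's rho between the share of members and the peak-free level was 0.47. The segments share their libraries, so this is a description. Some segments had many members over a low level. At 30 to 40 Mb of chromosome 16, 13 of 28 windows were members, and peak-free windows averaged 6.85 CPM. The end of chromosome X was similar: 12 of 23 windows between 150 and 160 Mb were members, and peak-free windows averaged 7.12 CPM. EMD lies there, with BRCC3 (DNA repair), DKC1 (dyskerin, a pseudouridine synthase), NSDHL (cholesterol synthesis), CETN2 (centrin), HAUS7, SLC10A3, FAM3A, MTM1 and CD99L2. The 19 members of chromosome X stood a median of 11.9 times above their local background.

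**Figure D3:**
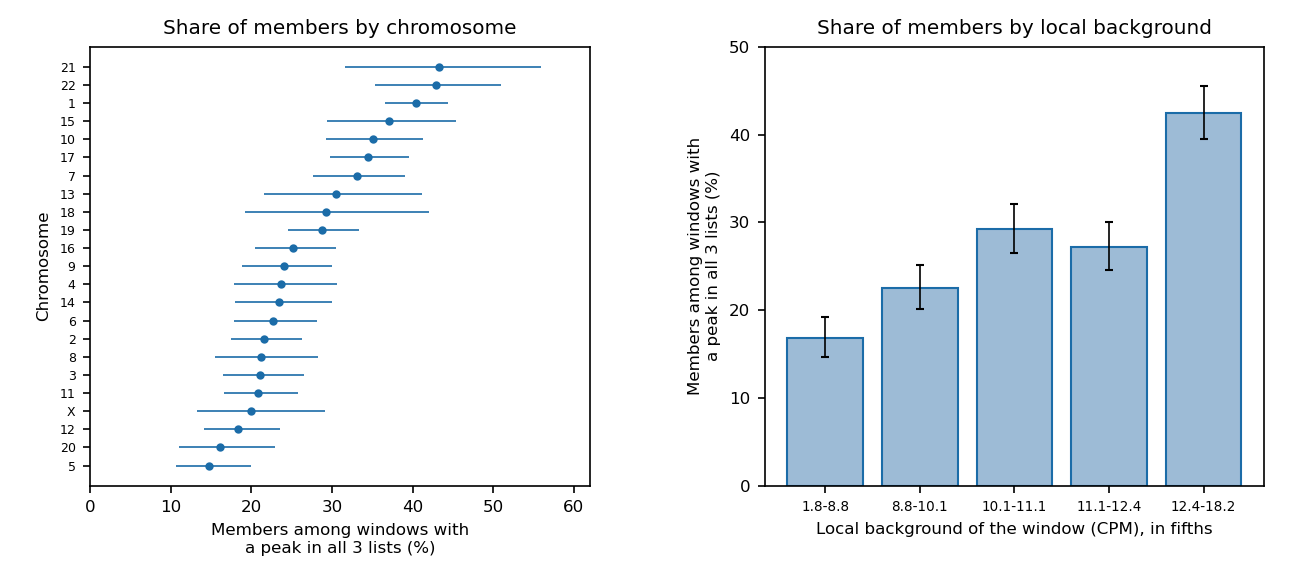
Left, share of windows with a peak in all 3 lists that are members (x axis, %) by chromosome (y axis), points with 95% Wilson intervals. Right, the same share (y axis, %) in 5 classes of local background (x axis, CPM). The share reaches 43.3% on chromosome 21, and runs between 16.8% in the lowest class and 42.5% in the highest.

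Some members lay close to one another. In 82 runs of 3 or more loci with gaps under 250 kb, there were 389 members, within spans that held 553 windows with a peak in all 3 lists and 1675 windows in all. Runs of other windows were not counted, so the closeness is not shown to be particular to members. The longest (chr17:81683725-82716883) held 16 members at 15 loci, including ARL16, P4HB (protein disulfide isomerase), ALYREF (mRNA export), PCYT2, DCXR, FASN (fatty acid synthase), FOXK2, RAB40B and FN3KRP. FASN held 121 ± 1.89 CPM and P4HB 135 ± 17.4 CPM. The span held 24 windows with a peak in all 3 lists and 81 windows in all. Signal over this run was 70.6 to 135 CPM, with a local background of 15.8 to 16.1 CPM and ratios of 4.45 to 8.53.

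The second run (chr1:27725780-28736821) held 14 members, among them FAM76A, STX12, PPP1R8, RPA2, SESN2, MED18, TAF12 and YTHDF2, at 69.3 to 133 CPM and ratios of 4.97 to 9.53. The third (chr16:30355162-30923469) held 11 members, including MYL11, DCTPP1, ZNF764, PHKG2 and FBXL19-AS1, at 80.1 to 143 CPM. Its background was only 8.64 to 9.41 CPM and its ratios reached 8.54 to 16.4. Close by (chr16:29790520-30096630), KIF22, MAZ, CDIPTOSP, LOC124903762, TBX6, YPEL3-DT and ENSG00000167371.18 formed a run of 7 loci at 72.9 to 188 CPM.

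Many members faced a second start site. An annotated TSS on the opposite strand lay within 1 kb upstream of 479 members (33.4%, 31.0 to 35.9), against 30.4% (28.9 to 31.9) of the other windows with a peak in all 3 lists, 26.5% of those with a peak in BioRep2 and BioRep3 only and 4.44% of windows with no peak. Windows with no peak differ in kind, as 17.5% of them were protein-coding, against 75.5% of members. Of protein-coding windows with no peak, 7.06% had such a TSS. The median distance was 173 bp in members, against 143 bp, 105 bp and 273 bp. In 164 pairs both windows were members. Where both windows lie within 400 bp they share reads, so their values are not separate.

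IBA57 and its divergent transcript IBA57-DT, 303 bp apart, held 164 ± 8.19 and 177 ± 14 CPM. IBA57 held 169, 132 and 165 CPM in BioRep1, 172, 145 and 180.2 CPM in BioRep2 and 175, 179 and 160.05 CPM in BioRep3, with overlap between all 3. BORA and MZT1, both of mitosis, lay 62 bp apart and held 139 ± 8.74 and 129 ± 8.17 CPM. CHKB-CPT1B and CHKB-DT lay 61 bp apart, at 139 ± 9.78 and 137 ± 10.4 CPM. Divergent transcripts named with -DT account for 53 member windows and antisense transcripts named with -AS for 35.

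The centres of the peaks lay mostly upstream of the TSS, though a peak with its centre upstream can still span the TSS. The centre of the longest peak over a member lay upstream in 74.0% of members in BioRep1, 74.2% in BioRep2 and 73.1% in BioRep3, at medians of -61.5, -60.5 and -59.0 bp. It was much the same in the other windows with a peak in all 3 lists, at 68.7%, 70.9% and 70.4%. Their medians were -46.5, -49 and -50 bp. Peaks over members were long, with medians of 294, 379 and 427 bp, against 132, 222 and 264 bp over the other windows with a peak in all 3 lists. Peak width rests on the same reads as the choice of members, so it is given as a description.

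Sequence was not used by the rule. RefSeq gave a promoter for 992 distinct named promoters among the members, for 2511 among the other windows with a peak in all 3 lists, 1302 among those with a peak in BioRep2 and BioRep3 only and 9255 among windows with no peak. The median GC share was 70% in members, against 67.7%, 64% and 54.3%, and the ratio of observed to expected CpG 0.899, against 0.887, 0.869 and 0.371. The median number of G and C runs was 17 in members, against 16, 14 and 11. In protein-coding windows with no peak these medians were 57% GC, a CpG ratio of 0.461 and 13 runs.

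The four-run motif was found on either strand in 40.8% of members' promoters (37.8 to 43.9), against 37.7% (35.8 to 39.6) in the other windows with a peak in all 3 lists. These intervals overlap. It was found in 28.8% (26.4 to 31.3) of promoters with a peak in BioRep2 and BioRep3 only, in 21.5% (20.7 to 22.3) of promoters with no peak and in 25.0% of all 35116 RefSeq promoters. In promoters of protein-coding windows with no peak it was found in 25.3%. In members it was on the coding strand alone in 176 promoters, on the template strand alone in 198 and on both in 31. When members were split into 4 near equal classes by ratio to local background, from lowest to highest, the share with the motif was 32.9%, 39.4%, 44.1% and 47.2%. Spearman's rho over 1017 members was 0.19 between GC share and the ratio and 0.11 between GC share and signal. These are weak correlations across windows that share libraries.

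**Figure D4:**
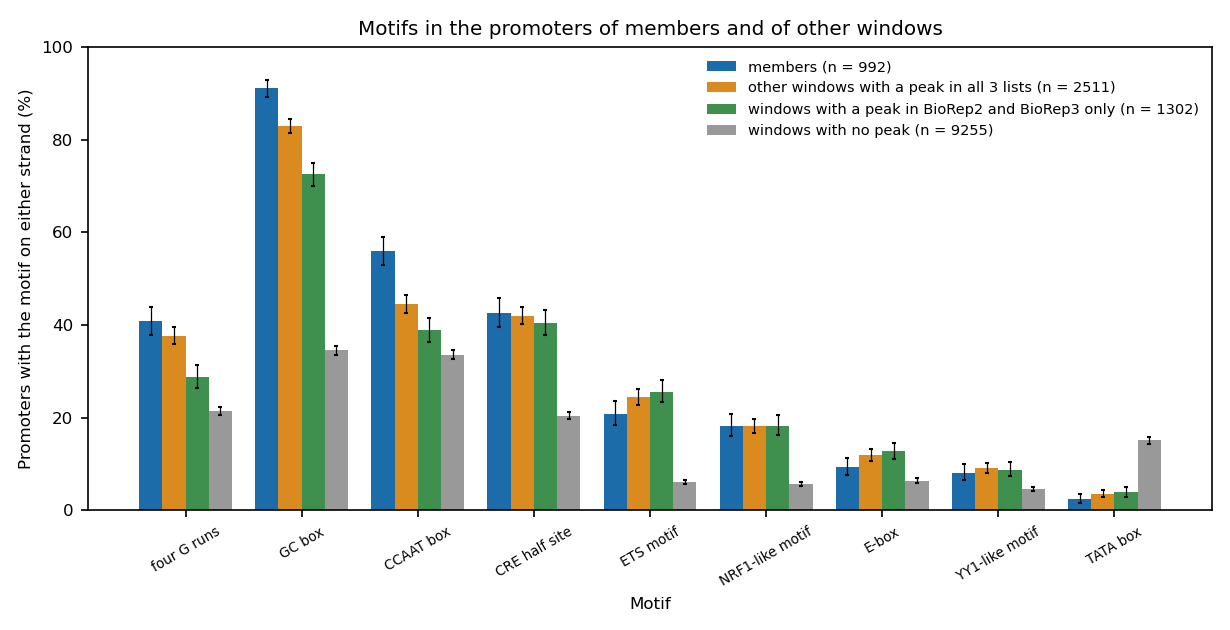
Share of promoters (y axis, %) with each motif on either strand (x axis), for members and 3 groups of other windows, with 95% Wilson intervals as error bars. Members lie above the other windows with a peak in all 3 lists for the GC box (91.2% against 83.0%) and the CCAAT box (55.9% against 44.4%), and below windows with no peak for the TATA box (2.32% against 15.1%).

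The GC box GGGCGG, the SP-factor element, was found in 91.2% (89.3 to 92.8) of members' promoters, against 83.0% (81.4 to 84.4) of the other windows with a peak in all 3 lists and 34.6% of windows with no peak (44.95% of all RefSeq promoters). Protein-coding windows with no peak had it in 41.2%. The GC box shares its G run with the four-run motif. CCAAT, the core of the element that the trimeric factor NF-Y binds, was found in 55.9% (52.8 to 59.0) of members, against 44.4% (42.5 to 46.4) of the other windows with a peak in all 3 lists, 38.9% (36.3 to 41.5) of those with a peak in BioRep2 and BioRep3 only and 33.5% of windows with no peak (34.6% of all). The intervals of members and the other windows with a peak in all 3 lists do not overlap.

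TATAAA was rare, at 2.32% of members (1.55 to 3.46), against 3.50% (2.85 to 4.30) and, in windows with no peak, 15.1% (11.5% of all). CCGGAAG, the ETS element, was less frequent in members than in the other windows with a peak in all 3 lists, at 20.9% (18.5 to 23.5), against 24.5% (22.8 to 26.2), and the intervals overlap. For TGCGCA (18.2% in members, against 18.2%), TGACG (42.6% against 42.0%), CACGTG (9.27% against 11.9%), TCGCGA (8.77% against 7.81%) and AAGATGG (8.06% against 9.08%) the intervals overlap as well. Of all RefSeq promoters, 8.24%, 24.6%, 7.26%, 3.12% and 5.84% hold these motifs, and 10.3% hold CCGGAAG. All motifs were searched on both strands, and a match is only a match of letters.

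**Figure D5:**
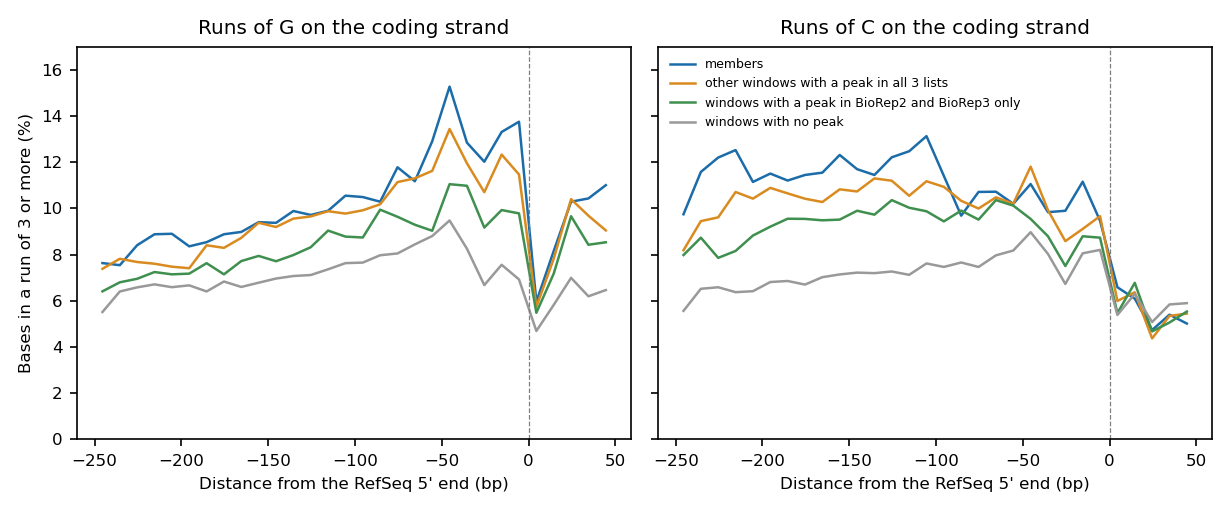
Share of promoter bases in a run of 3 or more G (left) or C (right) on the coding strand (y axis, %), by distance from the RefSeq 5′ end (x axis, bp) in bins of 10 bp, for members and 3 groups of other windows. G runs of members peak at 15.3% between -50 and -41 bp, against 13.4% in the other windows with a peak in all 3 lists, and drop at the 5′ end.

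Along the promoter, G runs on the coding strand were most frequent just before the start. In members they took 7.63% of bases between -250 and -241 bp and 15.3% between -50 and -41 bp. In the first 10 bases of the transcript the share was 5.96%, and between 40 and 49 bp downstream it was 11.01%. In windows with no peak, runs of G were also most frequent between -50 and -41 bp, at 9.48%. In members, runs of C were at 9.75% between -250 and -241 bp. They were highest between -110 and -101 bp, at 13.1%, and were at 5.01% at 40 to 49 bp. In the first 10 bases of the transcript runs of C took 6.58%, slightly more than runs of G, and in each bin further downstream runs of G were the more frequent.

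Functions were read from gene lists that had been written with earlier results of these data known, so their counts are a description, beside 1058 of 14613 named protein-coding genes (7.24%) in all. Genes of iron-sulfur cluster assembly had members in 7 of 17. IBA57, an assembly factor of mitochondria, is given above, and MMS19, which delivers clusters to DNA repair enzymes, held 135 ± 23.7 CPM. HSCB, a chaperone of the pathway, held 90.8 ± 3.67 CPM and NUBP2, a cytosolic scaffold, 87.3 ± 6.49 CPM. ISCA2 held 94.4 ± 18.3 CPM, and CIAO1 and ISCU (the mitochondrial scaffold) were the other members.

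Targets of p53 had members in 8 of 29: RRM2B, GADD45A, SESN2, FDXR, PPM1D, BTG2, POLK and PLK3. RRM2B held 144, 148 and 158 CPM in BioRep1, 166, 163 and 157 CPM in BioRep2 and 193, 178 and 177 CPM in BioRep3. BioRep3 lay above both of the others in all 3 libraries. GADD45A, a growth arrest gene, held 149, 151 and 149 CPM in BioRep1, 144, 169 and 146 CPM in BioRep2 and 168, 162 and 152 CPM in BioRep3, with overlap. FDXR, which encodes the mitochondrial ferredoxin reductase, held 98.7 ± 7.81 CPM, and the phosphatase gene PPM1D 98.3 ± 4.68 CPM.

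Factors of the bHLH and bZIP families had members in 12 of 53. These were MXD4 (135 ± 17.1 CPM), which pairs with MAX, itself a member, ATF2 (122 ± 15.7 CPM) and ARNT (117 ± 14.4 CPM), which pairs with HIF1A, also a member. The list also held NFE2L1, HEY1, CREM, JUND, CREB3L2, USF3 and ID4. Nucleotide metabolism had 9 of 46, with TK1 (thymidine kinase) at 142 ± 20.1 CPM and GMPS (GMP synthase) at 125 ± 1.95 CPM. BTB zinc finger and ZFP factors had 11 of 72, and the far larger class of ZNF genes 23 of 405, led by ZNF7 at 144 ± 27.9 CPM. MAZ was the only member among 25 SP, KLF and MAZ genes, of which 10 had a peak in all 3 lists.

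Chromatin modifiers had members in 23 of 136, with the histone demethylase gene KDM1B at 151 ± 15.6 CPM, PHF13 at 127 ± 17.1 CPM and the deacetylase gene HDAC1 at 121 ± 4.93 CPM. Genes of mitosis and the centrosome had 21 of 141, among them BORA, an activator of Aurora A, and CEP131 at 129 ± 12.3 CPM. DNA replication had 7 of 43 (SDE2, TIPIN, POLD1, GINS4, MCM5, POLE and RPA2) and DNA repair 11 of 84, with PARP1, the poly(ADP-ribose) polymerase of strand breaks, at 138 ± 8.29 CPM. MAP kinases and their phosphatases had 10 of 53, with MAP2K7, MAP3K14 and MAP2K3 near 100 CPM. MAP2K3 stood 17.7 ± 2.58 times above its background, against 9.54 times for MAP3K14.

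Membrane traffic was also present. ARF and ARL GTPases had members in 5 of 25, led by ARF1, which recruits vesicle coats, at 141 ± 8.90 CPM. RAB GTPases had 7 of 49, led by RAB40B (133 ± 14 CPM), and vesicle coats, SNAREs and tethers 24 of 188, with DOP1B at 139.5 ± 4.39 CPM and AP4B1 at 131 ± 21.3 CPM. Mitochondrial carriers and import had 9 of 57. Splicing and hnRNP genes had 17 of 146, led by SRSF4 at 145 ± 11.5 CPM, and translation factors and tRNA synthetases 10 of 77. Among named protein-coding genes with a peak in all 3 lists, 28.6% had a member window. That share was 23.6% for splicing, 20.4% for translation, 25.6% for DNA repair and 29.2% each for DNA replication and mitosis. These gene lists were thus near or under it. Iron-sulfur assembly (63.6%, 7 of 11 genes), p53 targets (61.5%, 8 of 13) and bHLH and bZIP factors (60.0%, 12 of 20) stood higher. So, among others, did MAP kinases and phosphatases (52.6%), ARF and ARL GTPases (45.5%), BTB zinc finger and ZFP factors (42.3%) and nucleotide metabolism (40.9%). Vesicle coats, SNAREs and tethers (40.0%) and mitochondrial carriers and import (37.5%) were above 28.6% too. Most of these counts are small, and some genes, such as RRM2B, stand in more than 1 list.

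Protein phosphatase subunits had members in 8 of 54 and Groucho corepressors in 1 of 5 (TLE4). The lists that follow were near or under the overall share. Cytosolic ribosomal proteins had members in 4 of 59, among them RPS2 at 97.98 ± 3.53 CPM, although 27 of the 59 had a peak in all 3 lists. Mitochondrial ribosomal proteins had 2 of 58 (MRPL55 and MRPL58), ubiquitin and proteasome enzymes 22 of 329 and solute carriers 12 of 236. Of 87 histone genes, 69 potassium channel genes, 358 olfactory receptor genes and 137 keratin genes, 0 had a member window. Gene length did not set members apart from the other windows with a peak in all 3 lists, with medians of 31.6 and 32.1 kb.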

How the data were processed

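The authors deposited, per the file headers and labels, raw read counts of 9 BG4 ChIP libraries in windows of 400 bp around TSSs (GENCODE release 28, hg38), not scaled for depth or input, and peak lists with coordinates and no score, 1 per biological replicate. MACS2, bedtools, Picard, BWA and cutadapt appear in the submitters' processing notes, without versions or roles. For peak thresholds and duplicates, the sources used here give nothing. Samples were grouped by title, 3 technical libraries in each of 3 biological replicates.

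Counts were divided by the library's reads in windows (372030 to 846114) and multiplied to CPM. Values are means over technical libraries, then mean ± SD over 3 biological replicates. Local background used at least 10 peak-free windows that do not overlap the member. Members and gene lists were chosen with earlier results of these data known. Names came from RefSeq 5′ ends (GRCh38.p14). A second step, from the outer ends in the RefSeq gene table, was added after unnamed members were seen, and limiting lists to protein-coding genes followed a first look at the matches. Named were the 30 members with the highest lowest library, the 15 highest and 10 lowest ratios, up to 6 members per list, the windows nearest the threshold, and the members of runs, of which only the longest are given. As no member was called, those with the lowest p are given instead. Any other name was picked with its values known. Some named members are not reported here and still count in the totals.

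Tools were R 4.3.3, edgeR 4.0.16 (TMM, filterByExpr, robust quasi-likelihood fit, Benjamini-Hochberg at 0.05 over all windows tested), DESeq2 1.42.0 and Python 3.11.15 (scipy 1.17.1, pandas 2.3.3, numpy 2.4.6, matplotlib 3.10.9). The 2 df fit for the comparison of the 3 biological replicates was tested on simulated counts over 17939 windows. It recovered 31.3% of changes of 1.5 times, 77.6% at 2 times and 100% at 3 times, beside 8 false calls. The simulated windows all had 1 common dispersion of 0.0011, and changes were placed only in BioRep3. These shares hold for that setting and not for windows with a larger spread. Alternatives were other thresholds, totals, peak rules, backgrounds, motif loops, filters, size factors, a block by technical number and leaving out libraries. Inputs were not used.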

Additional observations from a re-analysis of the deposited data

How the results depend on the processing

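The number of members stayed within 1.5 times 1433 for other library totals, other peak rules and division by the local background. After that division only 807 of the members were among the 1106 windows, so a similar number is not the same set. Leaving out a biological replicate gave 2079 (BioRep1), 1538 (BioRep2) and 1490 (BioRep3), and leaving out 1 library 1443 to 1626. Leaving out libraries can only raise the number, since fewer values must pass. A minimum of 50 CPM gave 2497 members and one of 80 CPM gave 423. The median ratio to local background was 8.16 to 8.24 without 1 library, and 9.42 with the median of the peak-free windows in place of their mean. Members beyond 200 Mb of chromosome 1 numbered 71 to 75 without 1 library and 26 after division by the local background. The share of promoters with the four-run motif was 61.5% with loops of up to 12 bases and 99.6% with runs of 2 G, since these motifs are looser by construction.

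Without the filter on low counts, edgeR called 25 windows and 8 members, against 0 and 0 with it; the cause was not tested. Leaving out 1 library gave 0 to 1 windows and 0 members called. The single call appeared without BioRep1 technical library 1, and without BioRep3 technical library 2. Technical numbers here are those of the titles. The deposited files number the same libraries otherwise, with the same shift in each biological replicate, so that the same libraries share a number either way. No pairing by these numbers was seen. The correlation of deviations between same-numbered libraries of 2 biological replicates was -0.0146 to 0.0263 over 9 pairs. Over 18 pairs with different numbers it was -0.0207 to 0.0229. Counting error in single windows can hide a weak pairing, so these values cannot exclude one. With the technical number as a replicate block 0 windows and 0 members were called. Counting error limits single values, since 60 CPM is 22.3 reads in the shallowest library.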
